A study of Rattus norvegicus with 8 samples.

Results

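A set of 3 genes of the glucocorticoid response was described in the prefrontal cortex (PFC) and hippocampus of chronically stressed rats: Nr3c1 (ENSRNOG00000014096), which encodes the glucocorticoid receptor, Fkbp5 (ENSRNOG00000022523), and Sgk1 (ENSRNOG00000011815). They were chosen by gene ID for their function, with earlier results of these data known. They are 3 of the 31185 gene IDs in the deposited table. All 3 passed the limit for testing, an average of 1 FPKM across libraries, as did 12155 genes in all. FPKM counts sequenced fragments relative to the length of the gene model and to the number of fragments mapped in the library. The pairing of these IDs with their symbols came with the choice of genes. It was not checked here, since the symbol table used matched 0 of the 31185 IDs.

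All animals were adult male Sprague-Dawley rats, an outbred strain, weighing 180 to 200 g at the start. The unstressed control received saline. The other groups went through chronic stress (CMS in the labels) and received saline, methylglyoxal (MGO, a reactive by-product of glycolysis) or luteolin (a plant flavonoid), injected daily in the last 3 weeks. For MGO the labels state both 5 mM/kg/day and 100 mM/kg, in separate places, and for luteolin 10 mg/kg/day. Each of the 4 treatments was represented by 1 PFC and 1 hippocampus library, dissected in week 7. The protocol names 1 unstressed rat and 2 stressed rats, given saline or MGO, as the source of both tissues, and no luteolin rat. A treatment was therefore 1 library per tissue, the libraries of a treatment were not independent, and no difference between treatments has a replicate check. In tissue RNA, fewer cells of a type and less RNA per cell cannot be told apart.

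Glucocorticoids, corticosterone in the rat, are released by the adrenal gland under stress and bind a receptor that moves to the nucleus and regulates transcription. Hippocampus and PFC are known sites of this receptor and of its feedback on the stress axis. FKBP51, the product of Fkbp5, is a co-chaperone that lowers the receptor's affinity for hormone and is itself induced by it, which forms a short feedback loop. SGK1 is a serine/threonine kinase whose gene is a classical early target of the receptor and whose substrates include regulators of ion channels and transporters.

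The libraries' FPKM sums lay between 300281 and 352740. Absolute depth is unknown, and the ratios of low values gave relative depths between 0.847 and 1.34, with the control PFC library at 1. The CMS + luteolin hippocampus library stood apart from the others of its tissue. The robust SD of its log2 differences from them, taken over all genes tested, was 0.406 to 0.438, against 0.195 to 0.207 among the other 3. The PFC libraries were uneven as well. There the robust SD was 0.294 to 0.328 against CMS + saline, the library with the highest sum and the lowest relative depth. It was 0.274 between CMS + MGO and control, 0.272 between the drugs and 0.185 between CMS + luteolin and control. The tissue differences, the SDs, the correlations over both tissues and the genes most like each of the 3 are given below with and without the CMS + luteolin hippocampus library or its pair. The SDs and correlations are not given without the CMS + saline PFC library. In the labels' descriptions, both CMS + saline libraries bear a code that differs from the one shared by the other 6. Markers of the tissues and of their cell types were not evaluated, because their IDs were not paired with symbols, so the labelled tissues were not checked.

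The sequences upstream of Fkbp5 and Sgk1 are shown because both genes are targets of the receptor and because Sgk1, the more variable of these targets in hippocampus, has 3 annotated starts that a single value per gene does not separate. The windows are the 250 bases before each start, 5′ to 3′, from RefSeq on build GRCr8, matched by symbol. The expression values were made on Rnor_6.0, so the coordinates apply to the sequences only. Nr3c1 has 2 starts in the same source, which its value does not separate either, and its windows are not shown. Capitals mark the letters TATAAA on the gene's strand.
Fkbp5, chr20:6543556-6543805, minus strand: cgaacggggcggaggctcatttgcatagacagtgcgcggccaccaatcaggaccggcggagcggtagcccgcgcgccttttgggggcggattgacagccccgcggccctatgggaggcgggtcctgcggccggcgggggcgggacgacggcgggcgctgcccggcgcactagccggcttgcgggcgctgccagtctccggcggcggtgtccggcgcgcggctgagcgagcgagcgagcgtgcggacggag
Sgk1, upstream start, chr1:24807232-24807481, minus strand: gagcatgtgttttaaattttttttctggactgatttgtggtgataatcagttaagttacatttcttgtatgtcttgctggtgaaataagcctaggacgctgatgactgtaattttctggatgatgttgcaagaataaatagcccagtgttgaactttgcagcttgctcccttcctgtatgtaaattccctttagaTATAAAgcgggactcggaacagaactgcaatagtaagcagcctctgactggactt
Sgk1, middle start, chr1:24805571-24805820, minus strand: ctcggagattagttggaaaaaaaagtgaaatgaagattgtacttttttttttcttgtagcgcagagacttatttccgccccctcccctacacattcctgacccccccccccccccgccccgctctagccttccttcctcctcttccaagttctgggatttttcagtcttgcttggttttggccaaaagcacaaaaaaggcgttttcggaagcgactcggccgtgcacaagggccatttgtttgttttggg
Sgk1, downstream start, chr1:24804832-24805081, minus strand: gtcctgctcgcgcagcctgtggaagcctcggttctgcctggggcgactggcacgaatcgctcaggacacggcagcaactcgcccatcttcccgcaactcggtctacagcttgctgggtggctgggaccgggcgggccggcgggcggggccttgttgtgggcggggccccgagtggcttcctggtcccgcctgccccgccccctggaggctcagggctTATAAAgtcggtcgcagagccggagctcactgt

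The downstream Sgk1 start has TATAAA from position -33 and the upstream start has it from position -55, counting the base before the start as -1. The same letters occurred in 8.06% of the 33469 windows in the table. The middle Sgk1 start and the Fkbp5 start did not have them. The GC content was 39.2% at the upstream, 49.6% at the middle and 69.6% at the downstream Sgk1 start, and 76.0% at Fkbp5, against a median of 51.2% over all windows. The half-site of the receptor's binding motif was searched as AGAACA on both strands. It was found in 0 of these 4 windows and in 17.5% of all windows. The shorter palindromic core ACANNNTGT, which overlaps it, was also found in 0 of the 4 and in 5.81% of all. The full palindrome of 2 half-sites with 3 bases between them was present in 4 of the 33469 windows and in none of the 4 shown. Sequence beyond these windows, farther upstream or within the genes, was not searched. The counts therefore do not say whether the genes have sites for the receptor.

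Nr3c1, the receptor gene, had a narrower range in PFC than in hippocampus. In PFC it was at 5.77 FPKM in control, 3.35 FPKM in CMS + saline, 4.87 FPKM in CMS + MGO and 3.49 FPKM in CMS + luteolin. In hippocampus it was at 3.15 FPKM in control, 8.10 FPKM in CMS + saline, 21.6 FPKM in CMS + MGO and 23.3 FPKM in CMS + luteolin. The control hippocampus library thus held the lowest of the 8 values, and the libraries of the drug-treated rats in hippocampus held the highest by a wide margin. The highest value was 7.40 times the lowest in hippocampus and 1.72 times in PFC.

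Fkbp5, the co-chaperone gene, had the narrowest range of the 3 in hippocampus and the widest in PFC. In PFC it was at 9.27 FPKM in control, 6.65 FPKM in CMS + saline, 9.46 FPKM in CMS + MGO and 14.4 FPKM in CMS + luteolin. In hippocampus it was at 12.4 FPKM in control, 9.21 FPKM in CMS + saline, 13.3 FPKM in CMS + MGO and 10.8 FPKM in CMS + luteolin. The CMS + saline library had the lowest value in each tissue, and the tissues overlapped. The highest value was 2.16 times the lowest in PFC and 1.44 times in hippocampus.

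Sgk1, the kinase gene, had the highest mean of the 3, and its hippocampal values fell into a high and a low pair. In PFC it was at 13.8 FPKM in control, 14.7 FPKM in CMS + saline, 18.2 FPKM in CMS + MGO and 10.6 FPKM in CMS + luteolin. In hippocampus it was at 46.8 FPKM in control, 64.0 FPKM in CMS + saline, 17.9 FPKM in CMS + MGO and 14.7 FPKM in CMS + luteolin. The hippocampus libraries of both saline-treated rats lay far above every PFC library, while those of both drug-treated rats lay within the PFC range. The highest value was 4.36 times the lowest in hippocampus and 1.72 times in PFC.

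**Figure D1:**
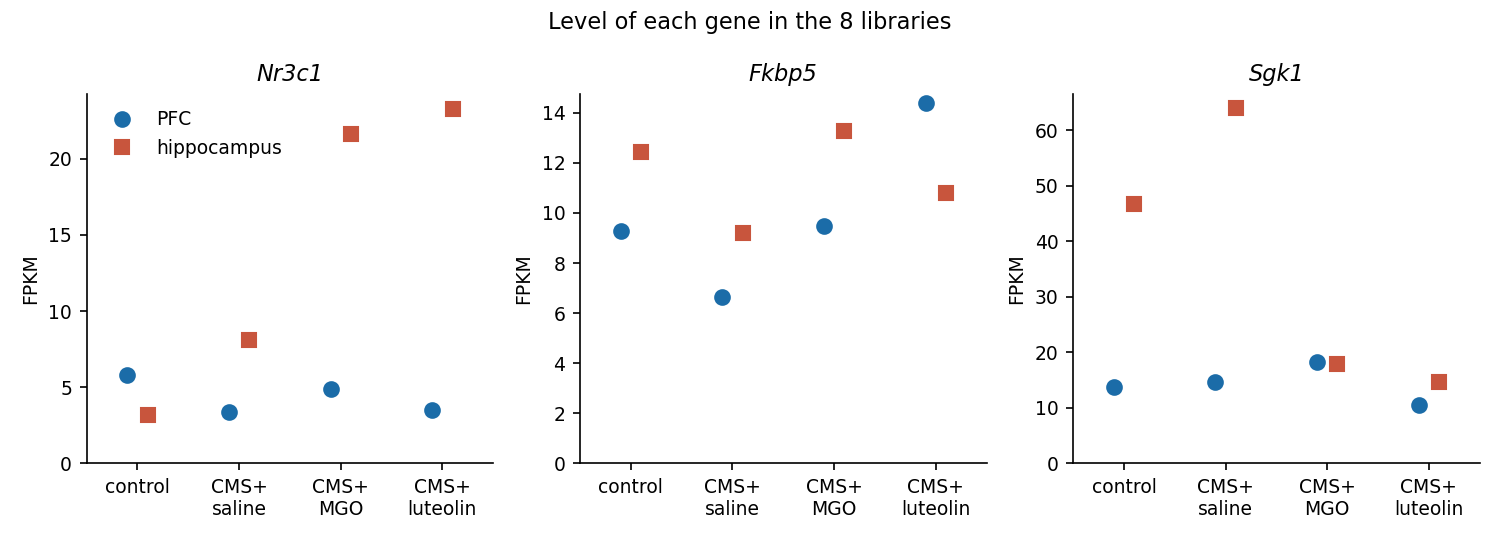
FPKM (vertical axis, from 0, a separate scale for each gene) of Nr3c1, Fkbp5 and Sgk1 by treatment (horizontal axis), with 1 circle per PFC library and 1 square per hippocampus library. Nr3c1 reaches 21.6 and 23.3 FPKM in the drug-treated hippocampus libraries, where Sgk1 is at 17.9 and 14.7 FPKM against 46.8 and 64.0 FPKM in the saline-treated ones.

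FPKM is per length, so the levels of the 3 genes can be set side by side. Averaged over the 8 libraries, Sgk1 was at 25.1 FPKM, Fkbp5 at 10.7 FPKM and Nr3c1 at 9.20 FPKM. Sgk1 lay above 79.4% of the 12155 genes tested, Fkbp5 above 57.6% and Nr3c1 above 53.2%. The order changed with the library: in the control hippocampus library Sgk1 was highest and Nr3c1 lowest, whereas in the CMS + MGO and CMS + luteolin hippocampus libraries Nr3c1 was the highest of the 3.

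The spread among treatments was set beside that of all genes, as the SD of log2(FPKM + 1) over the 4 libraries of a tissue. In hippocampus this SD was 1.21 for Nr3c1 and 1.00 for Sgk1, against a median of 0.204 over all genes tested. An SD at least that large was found for 352 genes (2.90%) in the case of Nr3c1 and for 511 genes (4.20%) in the case of Sgk1. In PFC their SDs were 0.31 and 0.30, and 24.8% and 25.5% of genes varied at least as much. Without the CMS + luteolin hippocampus library, the hippocampal SDs were 1.22 for Nr3c1 and 0.93 for Sgk1, and 2.69% and 4.62% of genes varied at least as much over the other 3. Fkbp5 went the other way, with an SD of 0.41 in PFC (16.7% of genes varied at least as much) and 0.22 in hippocampus (47.2%), or 0.26 without that library (20.9%). A hippocampal SD at least that of Sgk1 together with a PFC SD no larger than that of Nr3c1 was found for 125 of the 12155 genes (1.03%), a count whose bounds were set from these genes' own values.

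**Figure D2:**
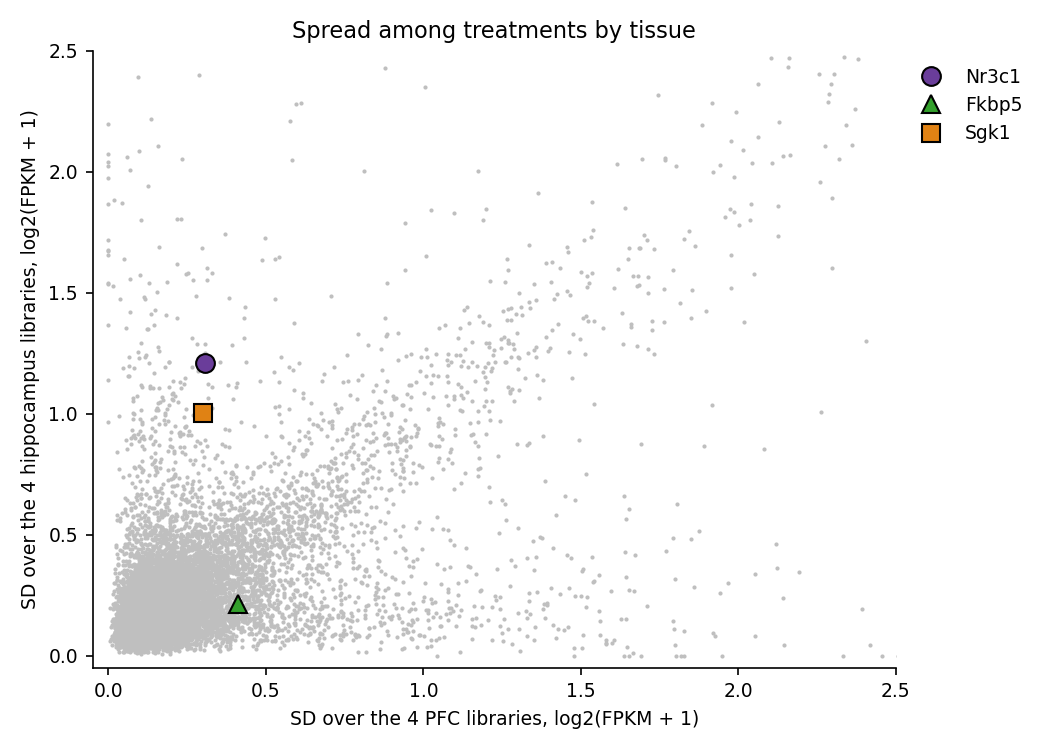
SD of log2(FPKM + 1) over the 4 PFC libraries (horizontal axis) and over the 4 hippocampus libraries (vertical axis), 1 grey point per gene tested, with the 3 genes marked. 58 genes lie beyond the axis limit of 2.5. Nr3c1 (1.21) and Sgk1 (1.00) are high on the hippocampus axis and near 0.3 on the PFC axis, while Fkbp5 has the largest PFC value of the 3 (0.41) and the smallest hippocampus value (0.22).

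Whether the genes differ between the tissues was asked over the 4 libraries of each, paired by treatment. In hippocampus the mean of Nr3c1 was 14.0 ± 9.95 FPKM, and in PFC it was 4.37 ± 1.16 FPKM (SD, n = 4). The difference on the log2(FPKM + 1) scale, which understates the changes of low genes, was 1.18 (SE 0.54, 95% interval -0.21 to 2.58, limma adjusted p = 0.195). The mean of Sgk1 was 35.8 ± 23.7 FPKM in hippocampus against 14.3 ± 3.14 FPKM in PFC (SD, n = 4). Its difference on this scale was 1.04 (SE 0.39, 95% interval 0.03 to 2.05, limma adjusted p = 0.136), and without the CMS + luteolin pair it was 1.24 (limma adjusted p = 0.185). The mean of Fkbp5 was 11.4 ± 1.81 FPKM in hippocampus against 9.94 ± 3.23 FPKM in PFC (SD, n = 4), and its difference was 0.22 (SE 0.17, 95% interval -0.23 to 0.66, limma adjusted p = 0.417). In limma, 0 of the 3 genes passed an adjusted p of 0.05, a threshold that 15.9% of all genes tested passed. Without adjustment, 1 of the 3, Sgk1, was under the same threshold in limma, as were 34.7% of all genes. The SDs include treatment, since each library of a tissue came from another treatment.

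The mean differences hid unequal differences within the treatments. For Nr3c1, PFC was 1.83 times hippocampus in the control pair. Hippocampus was 2.42 times PFC in the CMS + saline pair, 4.44 times in the CMS + MGO pair and 6.67 times in the CMS + luteolin pair. Nr3c1 was thus lower in hippocampus in 1 pair of 4. Without the control pair its log2 difference between tissues was 1.81 (limma adjusted p = 0.0746), and without the CMS + luteolin pair it was 0.77 (limma adjusted p = 0.424).

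For Sgk1 the pairs differed the other way round. Hippocampus was 3.40 times PFC in the control pair and 4.37 times in the CMS + saline pair. It was 1.39 times PFC in the CMS + luteolin pair, and in the CMS + MGO pair the tissues stood at 17.9 and 18.2 FPKM. Sgk1 thus stood past 2-fold, a difference of 1 in log2(FPKM + 1), in both pairs without a drug, and Nr3c1 in the 3 pairs under stress. Among all genes tested, 5.40% were at least 2-fold higher in hippocampus in the control pair, 5.00% in the CMS + saline pair, 4.76% in the CMS + MGO pair and 6.95% in the CMS + luteolin pair.

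Fkbp5 was 1.34, 1.38 and 1.41 times higher in hippocampus in the control, CMS + saline and CMS + MGO pairs. It was 1.33 times higher in PFC in the CMS + luteolin pair. Without the CMS + luteolin pair, the only pair in the other direction, its log2 difference was 0.42 (limma adjusted p = 0.0674), against 0.22 over all 4 pairs. Leaving out the control, CMS + saline or CMS + MGO pair instead gave 0.16, 0.15 and 0.14 (limma adjusted p = 0.672, 0.684 and 0.673).

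**Figure D3:**
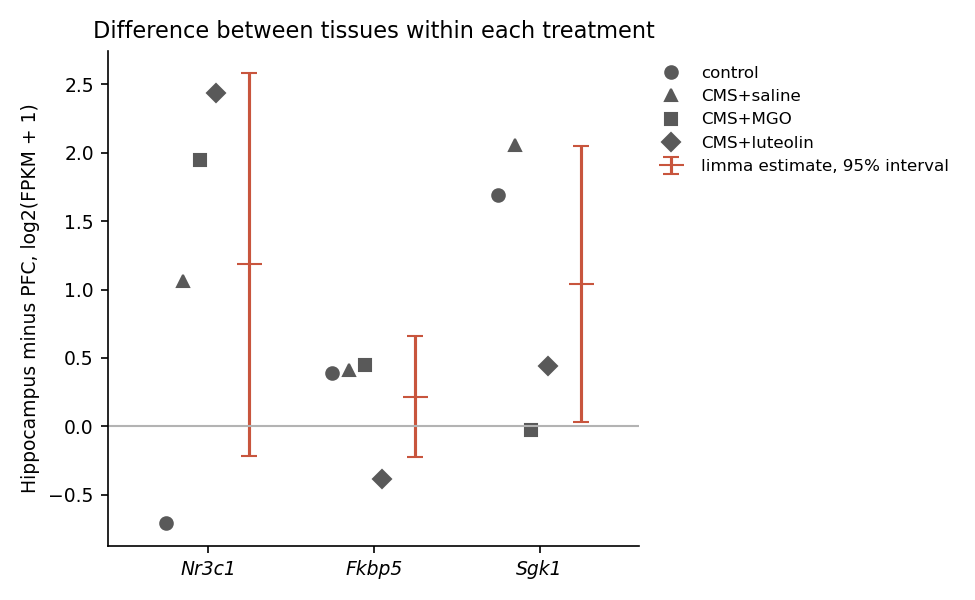
Hippocampus minus PFC in log2(FPKM + 1) (vertical axis) for each gene, with 1 grey symbol per treatment pair and the limma estimate with its 95% interval in red. The symbols of Nr3c1 run from -0.71 (control) to 2.44 (CMS + luteolin) and those of Sgk1 from -0.02 (CMS + MGO) to 2.05 (CMS + saline), while those of Fkbp5 stay between -0.38 and 0.45.

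CMS + saline and control were compared in each tissue for the effect of stress. Nr3c1 was 2.57 times higher under stress in hippocampus, a log2 difference of 1.13, and 1.72 times lower in PFC, a log2 difference of -0.64. Differences as large as these were found for 4.76% of genes in hippocampus and 12.8% in PFC. Sgk1 was 1.37 times higher under stress in hippocampus (log2 difference 0.44, with 13.8% of genes differing as much) and at 14.7 against 13.8 FPKM in PFC. Fkbp5 was lower under stress in both tissues, 1.35 times in hippocampus (log2 difference -0.40) and 1.39 times in PFC (log2 difference -0.42). In hippocampus 1 of the 3 genes was past 2-fold, as were 5.66% of all genes tested, and in PFC 0 of the 3 were, against 6.83% of all. A difference as large as that of Fkbp5 was found for 15.4% of genes in hippocampus and 22.3% in PFC. Stress, rat and description code cannot be told apart in this comparison.

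With MGO in place of saline under stress, the receptor gene was higher and the kinase gene lower in hippocampus. Nr3c1 was 2.67 times higher with MGO (log2 difference 1.31), Sgk1 was 3.58 times lower (log2 difference -1.78) and Fkbp5 was 1.44 times higher (log2 difference 0.49). Thus 2 of the 3 genes were past 2-fold, as were 6.01% of all genes. A difference as large was found for 4.23% of genes in the case of Nr3c1 and 2.64% in the case of Sgk1. In PFC the 3 genes were 1.24 to 1.45 times higher with MGO and 0 of the 3 were past 2-fold, against 6.51% of all genes. MGO, rat and description code cannot be told apart in this comparison.

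Luteolin was compared with the same CMS + saline libraries, and Nr3c1 and Sgk1 again stood apart in hippocampus. Nr3c1 was 2.88 times higher with luteolin (log2 difference 1.42) and Sgk1 was 4.36 times lower (log2 difference -2.05), so that 2 of the 3 genes were past 2-fold, as were 7.52% of all genes. Fkbp5 differed there by 0.21 on the log2 scale, less than the robust SD of 0.425 over all genes in this comparison. In PFC, Fkbp5 was 2.16 times higher with luteolin, at 14.4 against 6.65 FPKM, a log2 difference of 1.01. It was the 1 gene of the 3 past 2-fold there, where 6.52% of all genes were, and with median-ratio size factors its difference was 0.97. Sgk1 was 1.39 times lower with luteolin in PFC, and Nr3c1 was at 3.49 against 3.35 FPKM. Luteolin, rat and description code cannot be told apart here either.

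Both drugs were also set against the unstressed control, whose libraries share the drug libraries' description code. In hippocampus, Nr3c1 was 6.87 times higher with MGO and 7.40 times higher with luteolin, log2 differences of 2.45 and 2.55. Sgk1 was 2.62 times lower with MGO and 3.19 times lower with luteolin, log2 differences of -1.34 and -1.61. Hence 2 of the 3 genes were past 2-fold with either drug, against 5.68% of all genes with MGO and 6.61% with luteolin. For Nr3c1, 1.37% of genes differed as much with MGO and 1.18% with luteolin. These comparisons share the control libraries, as those above share the CMS + saline libraries, so the values with MGO and with luteolin are not independent. In PFC, 0 of the 3 genes were past 2-fold with MGO or with luteolin, against 6.86% and 6.30% of all genes. The largest PFC differences there were those of Nr3c1 and Fkbp5 with luteolin, at -0.59 and 0.58 on the log2 scale. Drug, stress and rat cannot be told apart in the comparisons with the unstressed control.

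The drugs were compared directly in each tissue. In hippocampus the luteolin and MGO libraries differed by 0.10 for Nr3c1, -0.28 for Fkbp5 and -0.27 for Sgk1 on the log2 scale. All 3 were below the robust SD of 0.438 over all genes between these libraries, and 0 of the 3 were past 2-fold, against 8.11% of all genes. In PFC, Sgk1 was 1.72 times lower with luteolin than with MGO (log2 difference -0.73), Nr3c1 was 1.39 times lower and Fkbp5 was 1.52 times higher. None of the 3 was past 2-fold, against 6.37% of all genes.

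**Figure D4:**
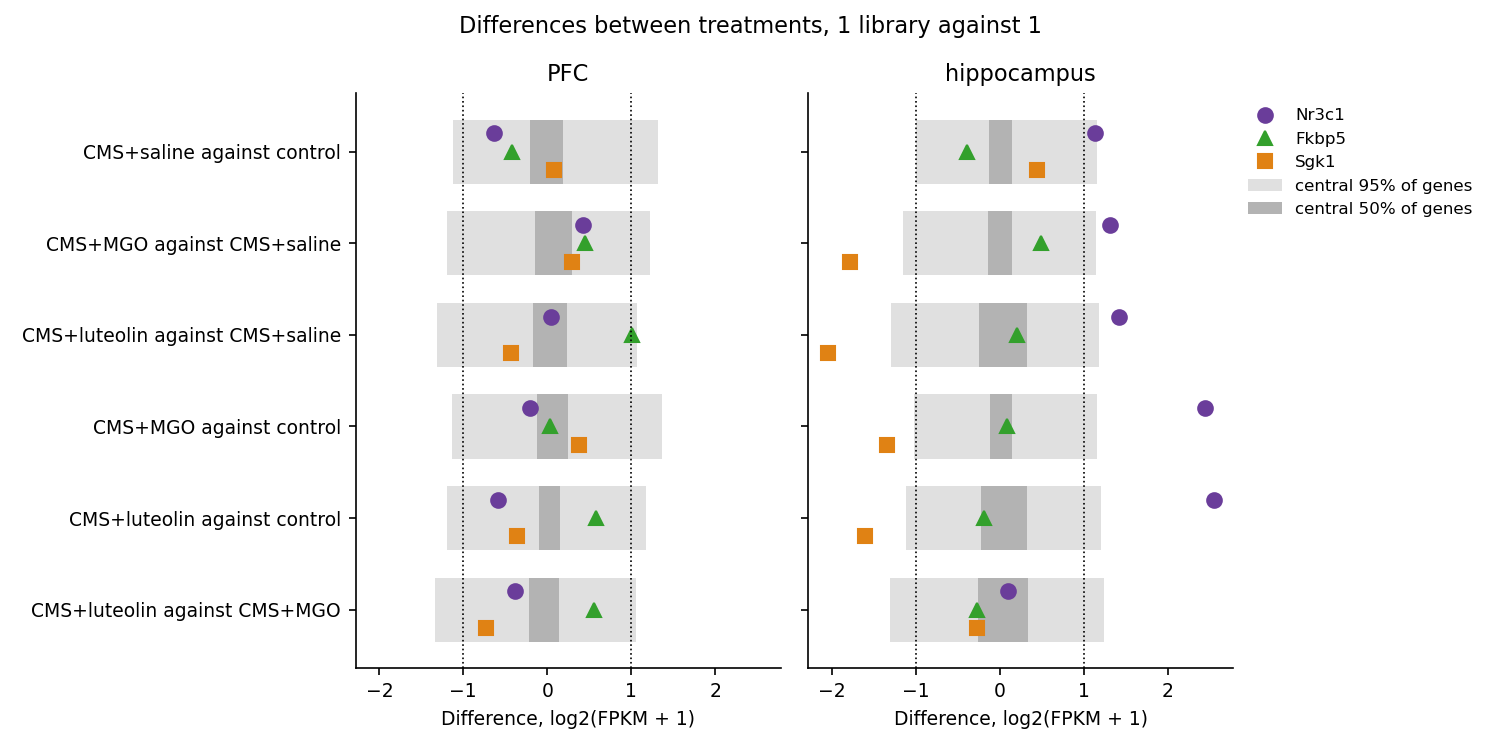
Differences in log2(FPKM + 1) (horizontal axis) for 6 comparisons of treatments (vertical axis) in PFC and hippocampus, 1 library against 1, with grey bars for the central 50% and 95% of the genes tested and dotted lines at a 2-fold difference. In hippocampus Nr3c1 lies to the right of the 2-fold line in 5 of 6 comparisons and Sgk1 to the left in 4 of 6. In PFC, Fkbp5 in CMS + luteolin against CMS + saline (1.01) is the only point past the line.

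The hippocampal order of the levels was read against these spreads, which are taken over genes and are not a spread between rats. From the lowest, Nr3c1 was ordered as control, stress with saline, stress with MGO and stress with luteolin. The steps from control to CMS + saline (1.13) and from there to CMS + MGO (1.31) exceeded the robust SDs of 0.2 and 0.207, while the step between the drugs did not. For Sgk1 the order from the lowest was CMS + luteolin, CMS + MGO, control and CMS + saline. There too the step between the drugs lay within the robust SD. The steps from CMS + MGO to control (1.34) and from control to CMS + saline (0.44) exceeded theirs. The latter was a step that 13.8% of genes matched or passed.

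The pair of drug libraries and the pair of saline libraries in hippocampus, a grouping by the injected agent that was made after the values were seen, did not overlap for Nr3c1 or Sgk1. The lowest drug value of Nr3c1 lay 1.31 above the highest saline value on the log2 scale, and the highest drug value of Sgk1 lay 1.34 below the lowest saline value. The MGO library sets both gaps, so leaving out the luteolin library cannot change them and is no check on them. The shares that follow were taken with both drug libraries. Drug libraries above saline libraries without overlap were found for 16.8% of all genes, and with a gap of at least 2-fold for 0.354%. The reverse was found for 13.5% and 0.436%. A gap as large as that of Nr3c1 in its direction was found for 31 genes and one as large as that of Sgk1 for 36 genes, these genes included. In PFC the values of Nr3c1 and Sgk1 overlapped between drug and saline. Those of Fkbp5 did not, with a gap of 0.03 in favour of the drugs, where 22.4% of genes had no overlap in that direction. Each group here holds 2 libraries, and stress separates the control from the rest, so no test was made.

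The 3 genes did not follow a common course. After subtraction of each tissue's mean, Nr3c1 and Sgk1 had a Pearson r of -0.747 over the 8 libraries. The tissues differed in sign, with r = -0.837 over the 4 hippocampus libraries and 0.423 over the 4 PFC libraries. In hippocampus both genes were higher in CMS + saline than in control, by 1.134 for Nr3c1 and 0.443 for Sgk1 on the log2 scale. They ran against each other there between the saline and the drug libraries. The values within a tissue are given neither beside those of all genes nor without the CMS + luteolin hippocampus library. Over the 8 libraries, an r with Nr3c1 of -0.747 or lower was found for 1.72% of genes. Without the CMS + luteolin hippocampus library this r was -0.621, and 6.47% of genes were as low or lower. Fkbp5 had r = 0.0212 with Nr3c1 and -0.37 with Sgk1, and 15.5% of genes had an r with Fkbp5 as low as that of Sgk1 or lower. Without that library these were 0.0839 and -0.549. The libraries of a treatment share a rat where the protocol says so, and 6 of the 8 values are free after subtraction of the means, so these are descriptions and carry no p-value.

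The genes most like each of the 3 were taken from the same correlations, with the others of 12155 genes as candidates and no pairing of their IDs with symbols. ENSRNOG00000014285 (r = 0.954) and ENSRNOG00000011521 (r = 0.953) were most like Nr3c1. In hippocampus the former was ordered as Nr3c1 was, over a smaller range, with 0.915 FPKM in control, 1.32 in CMS + saline, 1.85 in CMS + MGO and 2.29 FPKM in CMS + luteolin. ENSRNOG00000003285 (r = 0.973) and ENSRNOG00000006384 (r = 0.963) were most like Sgk1. The former was at 4.20 FPKM in control, 5.69 in CMS + saline, 2.28 in CMS + MGO and 1.69 FPKM in CMS + luteolin hippocampus, and between 4.03 and 4.65 FPKM in PFC. ENSRNOG00000006460 (r = 0.971) and ENSRNOG00000012702 (r = 0.960) were most like Fkbp5. The former was highest in CMS + luteolin PFC, at 7.60 FPKM, and lowest in CMS + saline PFC, at 4.47 FPKM. An r of at least 0.9 was reached by 19 genes with Nr3c1, 11 with Fkbp5 and 30 with Sgk1. These choices depended on the CMS + luteolin hippocampus library. Without it the 6 genes named here kept an r between 0.932 and 0.97, but none was among the 2 highest for its gene. An r of at least 0.9 was then reached by 35 genes with Nr3c1, 119 with Fkbp5 and 59 with Sgk1, over 7 libraries.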

How the data were processed

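RNA from 4 PFC and 4 hippocampus samples was profiled by RNA-seq. Tools named in the submitters' processing notes, without settings, are StringTie 1.2.4, HISAT2 2.0.4 and FastQC 0.11.5, and the genome is Rnor_6.0. The annotation release is not given in the sources used here. Values deposited by the authors are treated as FPKM, a unit inferred from StringTie and from the values because no header or label names it. StringTie-type estimates divide reads among overlapping gene models, which can move a gene's value without a change in its RNA.

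The 3 genes, the lists of related genes and the tests were chosen with earlier results of these data known. Lists of other receptor, chaperone, target and marker genes were fixed by symbol and were not evaluated, as 0 of 31185 IDs matched the 47357 genes of the RefSeq table. The genes most like each of the 3 were those with the 2 highest Pearson r, the rule for IDs without symbols.

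A pseudocount of 1 was added before taking log2, and the 12155 genes averaging 1 FPKM or more were tested. For the comparison of tissues, limma 3.58.1 (R 4.3.3) was fitted two-sided with a variance trend and treatment as a block. This left 3 residual degrees of freedom, and p-values were adjusted over all genes by Benjamini-Hochberg, with 0.05 as the threshold. The pairing of tissues comes from the protocol, and for luteolin from the treatment alone. Over all genes tested, deviations from the tissue means correlated within a pair at 0.12 (control), 0.175 (saline under stress), 0.0458 (MGO) and 0.114 (luteolin). The fit was tested on simulated data with the genes' own means and residual SDs. It recovered 62% of 100 changes of 1 on the log2 scale and 83% of 100 changes of 2, with 4 false calls. A difference of such a size can thus go uncalled. Treatments were compared by differences between single libraries, called at 2-fold, with no test. Folds in the text are ratios of FPKM. Alternatives changed the pseudocount, the filter, the scaling, the block, the trend and the pairs used. Leaving out the CMS + luteolin hippocampus library from the SDs, the correlations and the choice of most similar genes was added after seeing the data. Tables and plots were made in Python 3.11.15 (pandas 2.3.3, matplotlib 3.10.9).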

Additional observations from a re-analysis of the deposited data

Results flagged for a closer look

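Nr3c1 stood in opposite directions in PFC and hippocampus, by at least 1.5-fold in each, in 2 comparisons that share the control libraries. For CMS + saline against control the log2 difference was -0.637 in PFC and 1.134 in hippocampus. For CMS + luteolin against control it was -0.592 in PFC and 2.551 in hippocampus. Opposite differences of that size in both tissues were found for 1.73% of all genes tested in the former comparison and for 1.82% in the latter. The PFC differences of Nr3c1 were matched or passed in size by 12.8% and 10.8% of genes. Each value rests on 1 library against 1, and whether the tissues differ in these responses was not tested. Dixon's test marked 0 of the 6 groups of 4 values of these genes. With 4 values it can mark a single distant library but not a split of 2 against 2, such as that of Sgk1 in hippocampus.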

How the results depend on the processing

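The tissue differences of Nr3c1, Fkbp5 and Sgk1 kept their sign and stayed short of the threshold under a pseudocount of 0.1, no filter, a filter at 5 FPKM, both other scalings, no trend, no block and each omission of a treatment pair. With no replicate block they were 1.18, 0.22 and 1.04 (limma adjusted p = 0.168, 0.511 and 0.151), and 2391 genes differed between tissues in place of 1937. When 1 treatment pair at a time was left out, 243 to 838 genes differed: 243 without control, 499 without CMS + saline, 623 without CMS + MGO and 838 without CMS + luteolin. Each of these fits has fewer libraries. The differences then ran from 0.77 to 1.81 for Nr3c1, 0.14 to 0.42 for Fkbp5 and 0.70 to 1.40 for Sgk1. Of the 36 differences between treatments, 1 crossed the 2-fold line, that of Fkbp5 for CMS + luteolin against CMS + saline in PFC with median-ratio size factors. Signs turned for Fkbp5 in CMS + MGO against control in PFC (0.03 as deposited, -0.04 with both scalings) and for Sgk1 in CMS + saline against control in PFC (0.08 as deposited, -0.07 with equal sums). Equal sums moved the median difference of all genes by over 0.1 in 5 of 12 comparisons of treatments, by -0.14 to 0.139, and median-ratio size factors in none. Depth was recovered only in relative terms, so counting error is not quantified.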

Other observations

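The values of Sgk1 are written with 8 decimals in the deposited table, those of Nr3c1 and Fkbp5 with 6. More than 7 decimals were found for 3436 of the 12155 genes tested. At least a 2-fold range over the 4 hippocampus libraries was found for 10.9% of these genes and for 17.2% of the other 8719. What sets the number of decimals is not given in the sources used here.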
